A study of Mus musculus with 17 samples.

Results

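The clustered protocadherins were examined in the cortex of mice carrying altered alleles of Hnrnph2, an X-linked gene for an RNA-binding protein. Members were taken by name, as the symbols of the alpha (Pcdha and Pcdhac), beta (Pcdhb) and gamma (Pcdhga, Pcdhgb and Pcdhgc) clusters. Earlier results of these data were known when this family was chosen. The 55453 distinct symbols of the expression table held 57 members, 13 alpha, 22 beta and 22 gamma. Bulk frozen cortex from 17 male C57BL/6J mice had been profiled by stranded total RNA sequencing. At 8 weeks there were 3 hemizygous Hnrnph2-KO mice, 3 hemizygous R206W mice, and 3 wild-type littermates of each line (KO Control and R206W Control). At 3 weeks there were 3 hemizygous P209L mice and 2 wild-type littermates (P209L Control). The knockins carry a substitution in the nuclear localization signal of hnRNPH2, and the KO was a single line with a frameshift allele. The 3-week mice all came from the P209L line, so age, line and litter cannot be told apart in any comparison between ages. Among the mutants the Hnrnph2 allele differs between the ages as well. Nothing in the labels says whether libraries were made together. Levels are given as TPM, a transcript abundance scaled by transcript length and by library total, and sequencing depth cannot be read from it.

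Protocadherins are cell adhesion proteins of the cadherin superfamily. A neuron uses a subset of the clustered members, chosen by the promoter that is active in front of each variable exon, and proteins displayed on apposed membranes bind when their sets match. This recognition is known for self-avoidance of dendrites, for axon tiling and for the survival of interneurons. The C-type members (Pcdhac1, Pcdhac2, Pcdhgc3, Pcdhgc4 and Pcdhgc5) stand at the ends of the alpha and gamma clusters and are chosen less randomly than the others. Pcdhgc4 is the member known to be needed for the survival of cortical interneurons, Pcdhac2 is known for axon tiling of serotonergic neurons, and Pcdhgc3 is known for dendrite branching.

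All 3 clusters lie on the plus strand of chromosome 18 (GRCm38, GENCODE M21). The alpha cluster spans chr18:36930184-37187661, the beta cluster chr18:37264938-37524479 and the gamma cluster chr18:37661793-37841873. In the alpha and gamma clusters each variable first exon is spliced to 3 constant exons that all members of the cluster share, of 59, 89 and 2712 bases in alpha and of 59, 89 and 1971 bases in gamma. No base of a beta gene was shared in this way. The constant exons made up 48.6% to 54.9% of the longest annotated transcript of the alpha genes. For Pcdhgc4 they made up 42.2% of the longest transcript of 5024 bases and 93.3% of a second transcript of 2272 bases, which has only 153 bases of its own. For Pcdhgc5 they made up 7.1% of the longest transcript of 5777 bases and 44.7% of a transcript of 4741 bases. Its transcripts of 444 and 593 bases were 66.9% and 75.2% constant exon, each with 147 bases of its own. How reads from constant exons were divided among alpha and gamma members therefore rests on the quantification by the authors, and its part in the values below was not tested. The symbol Pcdha11 stood in 2 rows, matching 2 gene identifiers in the annotation, and the rows were summed. RefSeq names the upstream one of these Pcdha10, so each value given for Pcdha11 may be the sum of separate genes.

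Library quality was uneven. The library labelled KO Control 1 had 20.1% of its TPM in mitochondrially encoded genes, against 10.7% to 15.4% in the other 16 libraries. P209L Control 2 had a summed level of 5 choroid plexus markers of 1776 TPM, against 4.32 to 27.9 TPM elsewhere, and of 6 oligodendrocyte markers of 5928 TPM, against 2401 to 3964 TPM. Hnrnph2 itself was at 23.5, 21.3 and 24.4 TPM in the KO mice and at 80.5 to 145 TPM in their controls.

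The 3 clusters differed in level and in how that level was spread among members. In the 6 wild-type mice of 8 weeks, the summed level was 70.8 ± 16.3 TPM (SD, n = 6) for alpha, 72.7 ± 12.2 TPM for beta and 296 ± 60.6 TPM for gamma. In the alpha cluster, Pcdhac2 stood first at 29.1 ± 6.35 TPM, above Pcdha12 at 7.23 ± 2.03 TPM in 6 of 6 mice. Pcdhac1, the other alpha C-type member, was at 4.59 ± 1.00 TPM and Pcdha4 at 4.57 ± 0.912 TPM, a pair that did not differ beyond their spread.

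The beta cluster had no dominant member. Pcdhb20 at 7.15 ± 0.970 TPM and Pcdhb17 at 6.99 ± 1.42 TPM led it, and Pcdhb20 was the higher in 5 of 6 mice. Pcdhb9 followed at 5.69 ± 1.24 TPM. In the gamma cluster the 3 C-type members led, with Pcdhgc5 at 91.8 ± 25.3 TPM, Pcdhgc4 at 58.8 ± 6.79 TPM and Pcdhgc3 at 41.5 ± 7.35 TPM. Pcdhgc5 was above Pcdhgc4 in 5 of 6 mice, KO Control 1 being the exception, and Pcdhgc4 was above Pcdhgc3 in all 6. The 19 gamma A and B members together gave 104 ± 24.9 TPM.

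Of the 57 members, 54 had a mean of at least 1 TPM over the 17 mice and were tested. Pcdhb4 was the lowest of them at 1.07 TPM. The other 3, Pcdhgb8 at 0.511 TPM, Pcdha8 at 0.261 TPM and Pcdhb1 at 0.0318 TPM, were under 1 TPM at both ages and were not tested in the main analysis. A further 7 members passed only because of their level at 8 weeks, as their mean at 3 weeks was under 1 TPM.

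The first question was whether cluster totals differed between mutants and littermates or between ages. The alpha total was 40.4, 74.0 and 85.9 TPM in the KO Control mice, 56.0, 62.5 and 67.5 TPM in the KO mice, 81.0, 77.5 and 65.8 TPM in the R206W Control mice and 76.5, 69.6 and 99.8 TPM in the R206W mice. At 3 weeks it was 47.5 and 44.1 TPM in the P209L Control mice and 41.8, 43.4 and 60.9 TPM in the P209L mice. Mutant and control mice overlapped in each line. The 8-week mice KO 1, within the 3-week range, and KO Control 1, below it, kept the ages from separating.

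The beta totals separated by age. They were 49.6, 77.8 and 77.0 TPM in the KO Control mice, 67.8, 70.9 and 70.0 TPM in the KO mice, 85.0, 75.2 and 71.8 TPM in the R206W Control mice, and 76.2, 70.8 and 89.3 TPM in the R206W mice. At 3 weeks they were 43.9 and 42.2 TPM in the P209L Control mice and 39.7, 41.7 and 49.4 TPM in the P209L mice, all below every 8-week mouse, although P209L 3 and KO Control 1 nearly met.

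The gamma totals were 181, 298 and 356 TPM in the KO Control mice, 249, 259 and 397 TPM in the KO mice, 334, 309 and 296 TPM in the R206W Control mice and 335, 321 and 414 TPM in the R206W mice. At 3 weeks they were 199 and 216 TPM in the P209L Control mice and 153, 204 and 246 TPM in the P209L mice. Mutants and controls overlapped again, and KO Control 1 was the one 8-week mouse within the 3-week range. In the wild-type mice, the mean at 8 weeks was 1.54 times that at 3 weeks for alpha, 1.69 times for beta and 1.42 times for gamma. R206W 3 had the highest total and KO Control 1 the lowest total of the 12 mice of 8 weeks in each cluster. KO Control 1 was lower than the other 11 mice of 8 weeks for 47 of the 57 members. The matching share over all genes was not computed, so this is not shown to be particular to the members.

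**Figure D1:**
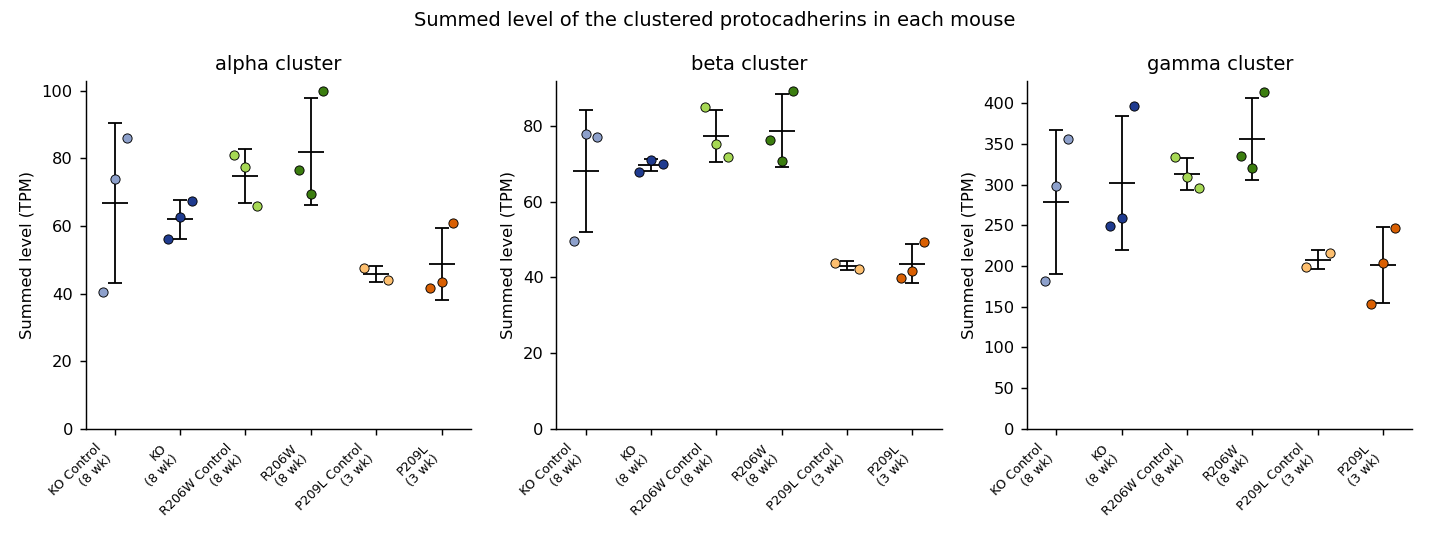
Summed level in TPM of the alpha, beta and gamma members in each of the 17 mice (points), with the group mean and SD (bars), by group and age. The 3-week groups sit at 44.1 to 47.5 TPM (controls) and 41.8 to 60.9 TPM (P209L) in alpha, and the low 8-week point in each panel is KO Control 1.

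Next, single members were compared between 3-week and 8-week wild-type mice, with limma on log2(TPM + 1) across 16265 genes and a Benjamini-Hochberg adjusted p threshold of 0.05. Most members tested were lower at 3 weeks, with the largest median difference in the gamma cluster. Of the 54 members, 41 were lower and 2 were higher. Over all genes tested, 24.8% were lower and 11.3% higher. By cluster, 5 of 12 alpha members were lower and 1 was higher, 16 of 21 beta members were lower, and 20 of 21 gamma members were lower and 1 was higher. The median log2 difference was -0.38 for alpha, -0.53 for beta and -1.46 for gamma, against -0.12 for all genes tested. As some members had to be high at 8 weeks to be tested, the 47 with a mean of at least 1 TPM at both ages were also counted, and 35 of them were lower and 2 higher. The share of all genes under that rule was not computed. With no filter, 36 of 57 were lower and 1 was higher, where 3452 of 33969 genes were lower and 2013 higher. The count of 43 calls fell to 28 without P209L Control 1 and to 27 without P209L Control 2, and was 41 without both libraries that stood apart, KO Control 1 and P209L Control 2.

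The ages were also compared in the mutants, P209L against KO and R206W, which shares no mouse with the comparison in controls. Here the allele changes together with age and line, so its part cannot be told apart. There, 44 members were lower at 3 weeks and 1 was higher, where 32.1% of all genes tested were lower and 13.9% higher. Of the 47 members at a mean of at least 1 TPM at both ages, 37 were lower and 1 was higher, again without a share of all genes under that rule. By cluster, 5 of 12 alpha members, 19 of 21 beta members and 20 of 21 gamma members were lower, and 1 gamma member was higher. The median log2 difference was -0.35 for alpha, -0.56 for beta and -1.44 for gamma, against -0.16 for all genes. The comparisons called 41 members in the same direction, which is 95.3% of the members called in controls and 91.1% of those called in mutants. The matching shares over all genes were not computed, so this overlap is not shown to be particular to the members. Scaling by median-of-ratios size factors moved the median of all genes to -0.02 in controls and -0.01 in mutants. The calls over all genes became 3242 higher and 3878 lower in controls, from 1837 and 4039, and 3971 higher and 4323 lower in mutants, from 2257 and 5213. The members' counts were 2 higher and 42 lower in controls and 2 higher and 44 lower in mutants under that scaling.

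**Figure D2:**
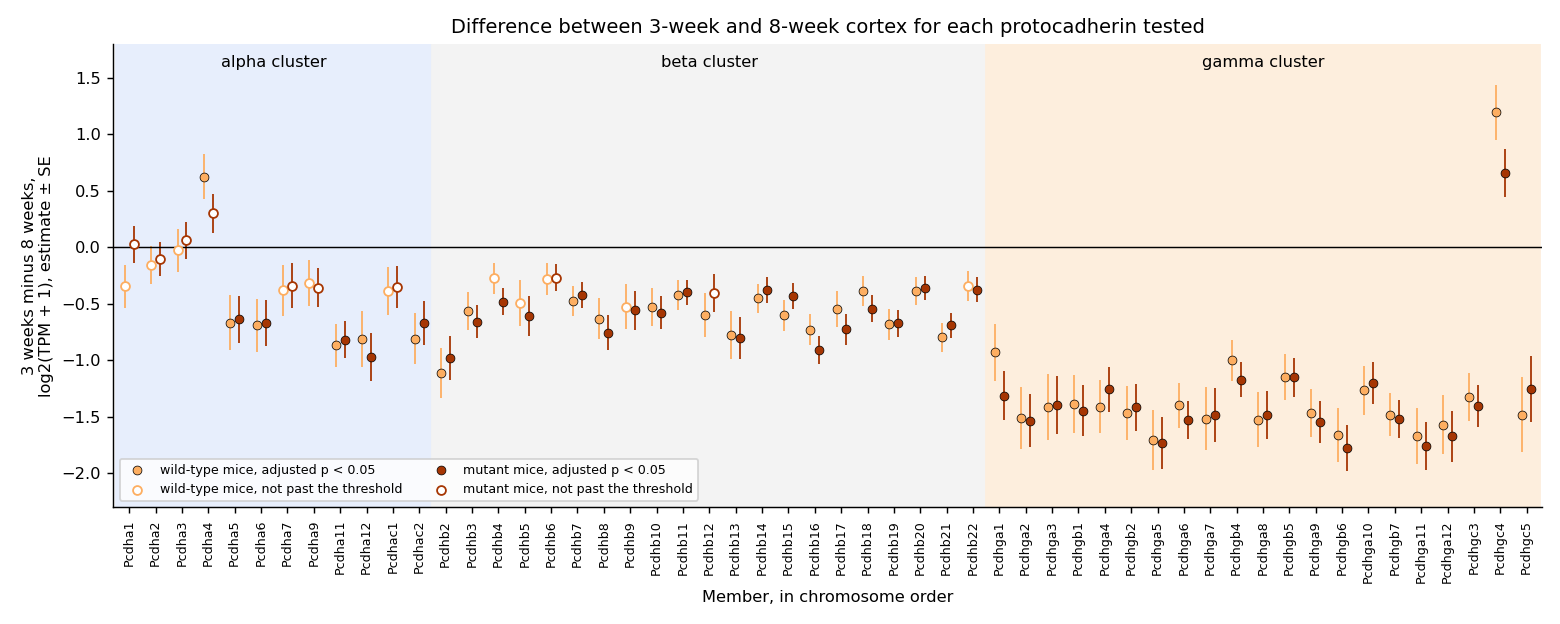
Difference in log2(TPM + 1) between 3 and 8 weeks (estimate with SE) for the 54 members tested, in chromosome order, in wild-type mice (light) and mutant mice (dark), with filled points where the adjusted p was under 0.05. Gamma members lie between -0.93 and -1.70 in wild-type mice except Pcdhgc4 at 1.20. Alpha members lie between -0.86 and 0.63 and beta members between -1.11 and -0.27.

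The gamma A and B members are chosen by single neurons among many alternatives. All 18 that were tested were lower at 3 weeks in the wild-type mice, with log2 differences from -1.70 to -0.93, and all 18 were lower in the mutant comparison, from -1.77 to -1.15. Of these, 4 passed the filter only through their level at 8 weeks, and the other 14 were lower in both comparisons. Their summed level was 22.8 and 28.7 TPM in the P209L Control mice and 54.4, 109 and 123 TPM in the KO Control and 119, 110 and 108 TPM in the R206W Control mice. The ages did not overlap, also with KO Control 1 counted, and the mean at 8 weeks was 4.03 times that at 3 weeks in wild-type mice and 3.99 times in mutants.

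Pcdhga11, the gamma A member with the highest level, was at 2.54 and 3.58 TPM in the P209L Control mice, 6.52, 12.8 and 14.2 TPM in the KO Control mice and 12.98 to 13.25 TPM in the R206W Control mice. The 3-week mice lay below every 8-week mouse, with a log2 difference of -1.67 (SE 0.25, limma adjusted p = 0.000199). The ages failed to overlap, in either direction, for 6216 of the 16265 genes tested in wild-type mice and for 6544 in mutants. Pcdhga5 had the largest fall among members, from 2.71 to 7.55 TPM in the 8-week wild-type mice to 0.850 and 1.22 TPM at 3 weeks, a log2 difference of -1.70 (SE 0.27, limma adjusted p = 0.000277). The other members among the 5 with the smallest p or the 5 with the largest difference were Pcdhgb6 at -1.66, Pcdhga12 at -1.57, Pcdhga8 at -1.53, Pcdhgb7 at -1.48, Pcdhga9 at -1.46 and Pcdhga6 at -1.40, with limma adjusted p from 8.444e-05 (Pcdhgb7) to 0.000449 (Pcdhga12). Pcdhgb7 and Pcdhga9 had a mean of 0.73 and 0.826 TPM at 3 weeks, so both were tested only because of their level at 8 weeks.

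The C-type members did not all follow. Pcdhgc5 was at 31.2 and 30.7 TPM in the P209L Control mice, at 44.8, 97.1 and 114 TPM in the KO Control mice and at 110, 98.9 and 85.0 TPM in the R206W Control mice. It fell by 1.48 on the log2 scale at 3 weeks relative to 8 weeks in wild-type mice (SE 0.33, limma adjusted p = 0.00349), in which the ages did not overlap. In mutants its log2 difference was -1.25 (SE 0.29, limma adjusted p = 0.00276), and the ages overlapped, with P209L 3 at 59.4 TPM and KO 1 at 57.8 TPM. Pcdhgc3 was at 13.96 and 17.7 TPM in the P209L Control mice against 27.6, 39.7 and 47.2 TPM in the KO Control and 47.4, 43.8 and 43.0 TPM in the R206W Control mice. Its log2 difference was -1.32 (SE 0.22, limma adjusted p = 0.00039). Again no wild-type mouse of one age lay within the range of the other, as for 6216 of the 16265 genes tested.

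Pcdhgc4 went the other way. It was at 131 and 139 TPM in the P209L Control mice, against 54.5, 52.9 and 71.8 TPM in the KO Control and 57.6, 56.1 and 59.8 TPM in the R206W Control mice. Each 3-week wild-type mouse was above each 8-week wild-type mouse, with a log2 difference of 1.20 (SE 0.24, limma adjusted p = 0.0017). In the mutants it was at 98.8, 122 and 126 TPM in P209L, 73.0, 50.6 and 121 TPM in KO, and 71.0, 87.7 and 52.5 TPM in R206W mice. Here the ages overlapped because of KO 3, and the log2 difference was 0.66 (SE 0.21, limma adjusted p = 0.0184). Without P209L replicate 2 or without P209L replicate 3, no member was called higher in the mutant comparison.

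The alpha C-type members showed smaller differences. Pcdhac2 was at 17.2 and 14.5 TPM in the P209L Control mice, at 17.1, 29.9 and 34.5 TPM in the KO Control mice and at 33.4, 31.7 and 27.8 TPM in the R206W Control mice, so that KO Control 1 lay within the 3-week wild-type range. Its log2 difference was -0.81 (SE 0.23, limma adjusted p = 0.0122), and without P209L Control 2 it was -0.69 and no longer passed. Pcdhac1 was at 3.35 and 3.08 TPM in the P209L Control mice, within the 8-week wild-type range of 3.05 to 5.72 TPM, and did not pass the test (log2 difference -0.39, SE 0.22, limma adjusted p = 0.175).

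**Figure D3:**
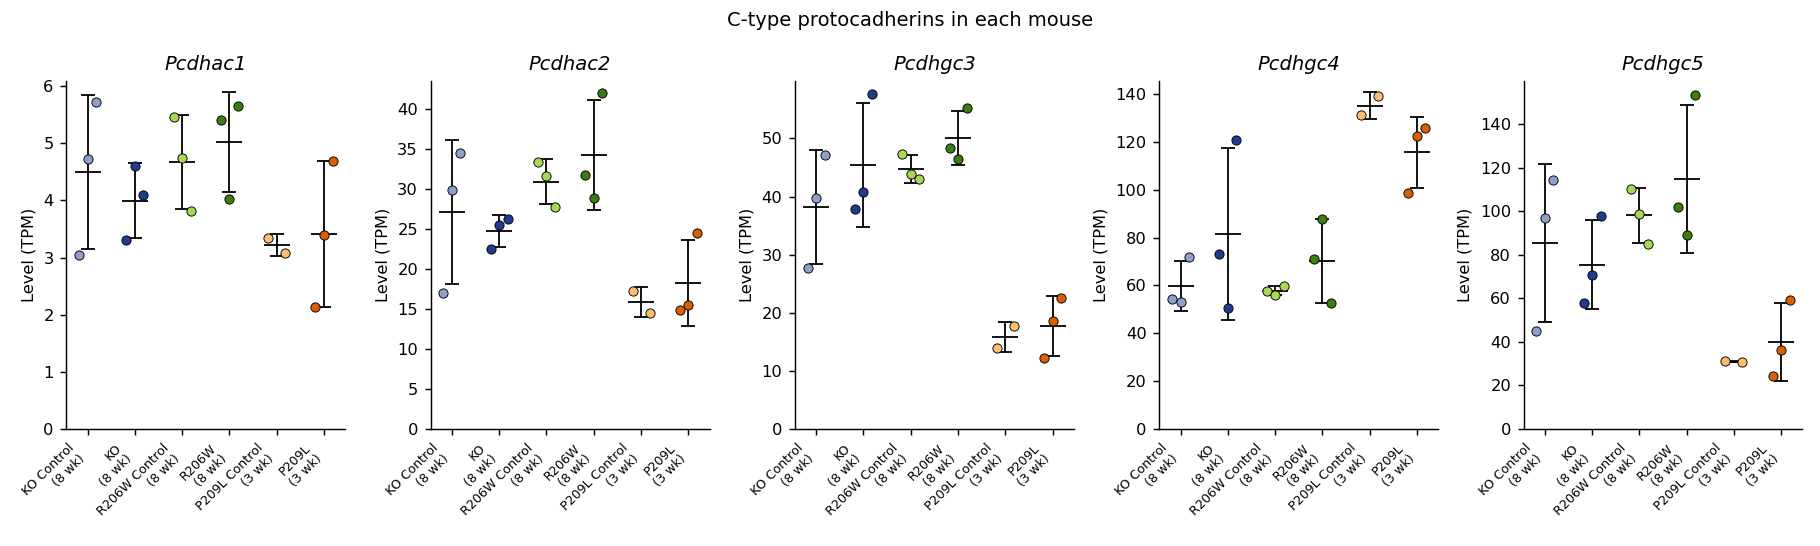
Level in TPM of the 5 C-type members in each mouse (points), with the group mean and SD (bars), by group and age, each panel with its own axis from 0. Pcdhgc4 is at 131 and 139 TPM in the 3-week controls and at 52.9 to 71.8 TPM in the 8-week controls, whereas Pcdhgc3 and Pcdhgc5 are lower at 3 weeks.

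The make-up of the gamma cluster differed accordingly. Pcdhgc4 gave 65.9% and 64.4% of the gamma total in the P209L Control mice and 64.4%, 60.2% and 51.2% in the P209L mice. In the 8-week mice it gave 12.7% to 30.5%, and the ages did not overlap. Pcdhgc5 gave 14.2% to 24.1% at 3 weeks and 23.2% to 37.0% at 8 weeks, a range that overlapped through P209L 3. Without Pcdhgc4, the gamma total in wild-type mice at 8 weeks was 3.27 times that at 3 weeks.

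The ratio of Pcdhgc4 to Pcdhgc5 within a mouse does not depend on the library total, and was examined after the values of both genes were seen. It was 4.21 and 4.54 in the P209L Control mice and 0.522 to 1.22 in the 6 wild-type mice of 8 weeks. The log2 ratio differed by 2.72, and the two-sided exact permutation test gave p = 0.0714, the smallest that 2 against 6 mice allow. In the mutants the ratio was 4.04, 3.40 and 2.12 in P209L mice and 0.342 to 1.26 in KO and R206W mice. The log2 ratio differed by 1.94, with a two-sided exact permutation p = 0.0238, the smallest that 3 against 6 mice allow. As the pair of genes was picked with these values known, neither p is independent evidence, and no conclusion is drawn from them.

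**Figure D4:**
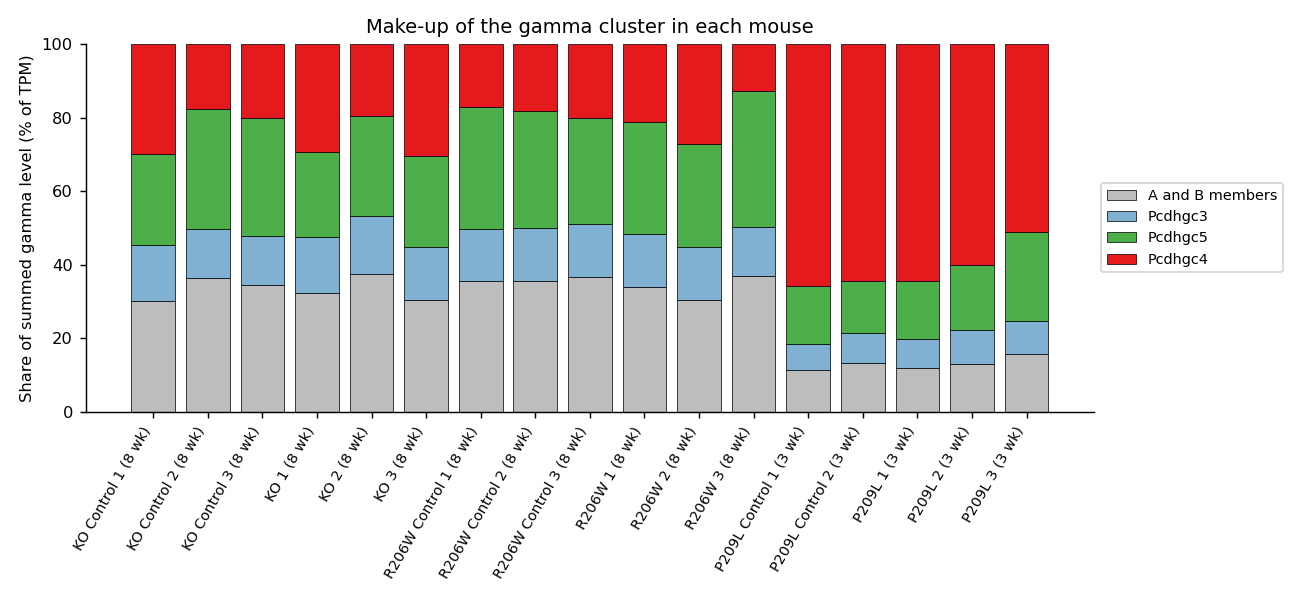
Share of the summed gamma level (percent of TPM) held by the gamma A and B members, Pcdhgc3, Pcdhgc5 and Pcdhgc4 in each of the 17 mice. Pcdhgc4 holds 51.2% to 65.9% in the 5 mice of 3 weeks and 12.7% to 30.5% in the 12 mice of 8 weeks.

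The other alpha members differed in direction. Pcdha4 was at 7.70 and 7.28 TPM in the P209L Control mice against 2.82 to 5.37 TPM in the 8-week wild-type mice, with no overlap. Its log2 difference was 0.63 (SE 0.20, limma adjusted p = 0.0217) in wild-type mice and 0.30 (SE 0.17, limma adjusted p = 0.159) in mutants, so the call was made in wild-type mice only, and whether the comparisons differed from each other was not tested. Pcdha12 was at 3.72 and 3.36 TPM in the P209L Control mice and at 3.48 to 9.62 TPM in the 8-week wild-type mice, overlapping through KO Control 1, with a log2 difference of -0.81 (SE 0.25, limma adjusted p = 0.0184). The calls of Pcdha4 and Pcdha12 were lost without either P209L Control mouse and with no filter, at 0.59 to 0.66 and -0.87 to -0.76 on the log2 scale. In all, each of these calls was lost in 4 of 20 alternative settings.

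The beta members, which have no constant exons, had smaller differences than most gamma A and B members. All 21 tested had a log2 difference below 0 in both comparisons, from -1.11 to -0.27 in wild-type mice. Of the 16265 genes tested, 9841 were below 0 in wild-type mice and 10361 in mutants. Under size factors all 21 stayed below 0, with 8426 of 16249 genes in wild-type mice and 8326 in mutants. Pcdhb20 was at 5.59 and 4.83 TPM in the P209L Control mice and at 5.19 to 7.74 TPM in the 8-week wild-type mice, overlapping through KO Control 1 (log2 difference -0.39, SE 0.12, limma adjusted p = 0.0225). Pcdhb17 was at 4.48 and 4.29 TPM in the P209L Control mice and at 4.37 to 8.68 TPM in the 8-week wild-type mice, with the same overlap (log2 difference -0.55, SE 0.16, limma adjusted p = 0.0149). Both calls were lost without either P209L Control mouse, at -0.47 and -0.30 for Pcdhb20 and -0.57 and -0.52 for Pcdhb17. In all, each of these calls was lost in 3 of 20 alternative settings. Pcdhb9 had a log2 difference of -0.52 in wild-type mice (SE 0.20, limma adjusted p = 0.0511) and of -0.56 in mutants (SE 0.17, limma adjusted p = 0.0157). Pcdhb4, the member nearest the filter, had a log2 difference of -0.27 (SE 0.14, limma adjusted p = 0.124) in wild-type mice.

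Markers of several cell types moved with age as well, where 24.8% of all genes tested were lower in wild-type mice and 32.1% in mutants. Of 5 excitatory neuron markers, 4 were lower at 3 weeks in the wild-type comparison and 3 in the mutant comparison. Their summed level was 1422 to 1529 TPM in P209L Control and 1218 to 1573 TPM in P209L mice, against 1551 to 2546 TPM in KO Control, 1975 to 2570 TPM in KO, 2311 to 2342 TPM in R206W Control and 2324 to 2626 TPM in R206W mice. None of the 5 was at 0 in any mouse. Of 6 inhibitory neuron markers, 1 was lower in the wild-type comparison, and 3 were lower and 1 higher in the mutant comparison. Astrocyte and microglia markers were lower for 3 of 5 in each comparison. Endothelial markers were lower for 1 of 5 in wild-type mice and 4 of 5 in mutants. Of 6 oligodendrocyte markers, 4 were higher in wild-type mice, with P209L Control 2 the highest library, and 1 was lower in mutants. None of the 4 immature neuron markers tested passed in either comparison, at 212 to 301 TPM summed at 3 weeks and 142 to 237 TPM at 8 weeks. In bulk tissue, fewer cells of a type and less RNA per cell cannot be told apart, and the part of these markers in the protocadherin differences was not tested. Taf7, the gene of a subunit of general transcription factor TFIID, which lies between the beta and gamma clusters, was at 3.88 to 5.85 TPM in the 17 mice, with a log2 difference between ages of -0.27 in wild-type mice (SE 0.11, limma adjusted p = 0.0681) and of 0.10 in mutants (SE 0.10, limma adjusted p = 0.417). The other 2 non-member genes within the span at a mean of at least 1 TPM were processed transcripts of the gamma cluster region. Gm38182 had a log2 difference of -0.67 in wild-type mice (limma adjusted p = 0.0147) and of -0.40 in mutants (limma adjusted p = 0.0612). It lies on the plus strand at chr18:37823879-37840382, a span that overlaps the gamma constant exons. Whether its values include reads from those exons was not tested. Gm26672, on the minus strand, had -0.39 (limma adjusted p = 0.0404) and -0.52 (limma adjusted p = 0.00301).

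Genes that act on or with the clusters were read from the same fit. Of 19 boundary and chromatin factors tested, among them CTCF and cohesin, which loop enhancers to protocadherin promoters, 8 were lower and 0 higher at 3 weeks in wild-type mice, where 24.8% of all genes tested were lower and 11.3% higher. Among those lower were Nipbl, the cohesin loader (log2 difference -0.84), Stag2, a cohesin subunit (-0.91), and Wapl, the cohesin release factor (-0.77). Ctcf was also lower, at -0.51 (SE 0.17, limma adjusted p = 0.0289). In mutants 8 of the 19 were lower and 2 higher, where 32.1% of all genes tested were lower and 13.9% higher. Those higher in mutants were Smchd1, a silencing factor (0.28, limma adjusted p = 0.0381), and Stag1, a cohesin subunit (0.26, limma adjusted p = 0.0385), which had differences of 0.19 and -0.07 in wild-type mice and did not pass there.

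Of 22 partners in cleavage and signalling, 11 were lower and 1 higher in wild-type mice, and 13 were lower and 2 higher in mutants, to be read against the same shares of all genes. The 4 with the smallest p in wild-type mice were Abi1 (log2 difference -0.84), Nckap1 (-0.77), Cyfip2 (-1.19) and Abi2 (-0.61), which encode subunits of the WAVE complex of actin regulation. In mutants Abi1 was at -0.23 and did not pass (limma adjusted p = 0.0662), and Wasf1, the WAVE protein itself, did not pass in wild-type mice (-0.55, limma adjusted p = 0.063). The member higher in wild-type mice was Psenen, a gamma-secretase subunit (0.42). Of 11 non-clustered protocadherins tested, 7 were lower and 0 higher in wild-type mice and 8 were lower in mutants, against the same 24.8% and 32.1% of all genes lower. Pcdh10 (-1.03), Pcdh7 (-0.99), Pcdh9 (-0.88) and Pcdh11x (-0.84) had the smallest p. The median log2 difference of the lists in wild-type mice was -0.26 for boundary and chromatin factors, -0.46 for partners and -0.61 for non-clustered protocadherins, against -0.12 for all genes tested.

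The comparison of mutants with their littermates asked whether loss or substitution of hnRNPH2 changed the clusters. No member passed the limma adjusted threshold in the KO, R206W or P209L comparison, where 0.00615%, 0.0369% and 0.0984% of all genes tested passed. At an unadjusted p under 0.05, 0 members stood in the KO and R206W comparisons and 1 in the P209L comparison, where 4.08%, 2.19% and 7.46% of all genes did. A member's log2 difference had a standard error of 0.12 to 0.33 in the KO and R206W comparisons. In the P209L comparison the standard error was 0.14 to 0.37. A difference of 0.49 (SE 0.21, Pcdha1 in P209L) had a limma adjusted p of 0.62, so shifts of that size, and possibly larger ones, could have been missed. The smallest shift that would have passed was not computed. The members' differences ran from -0.29 to 0.37 in KO, from -0.16 to 0.35 in R206W and from -0.23 to 0.49 in P209L.

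**Figure D5:**
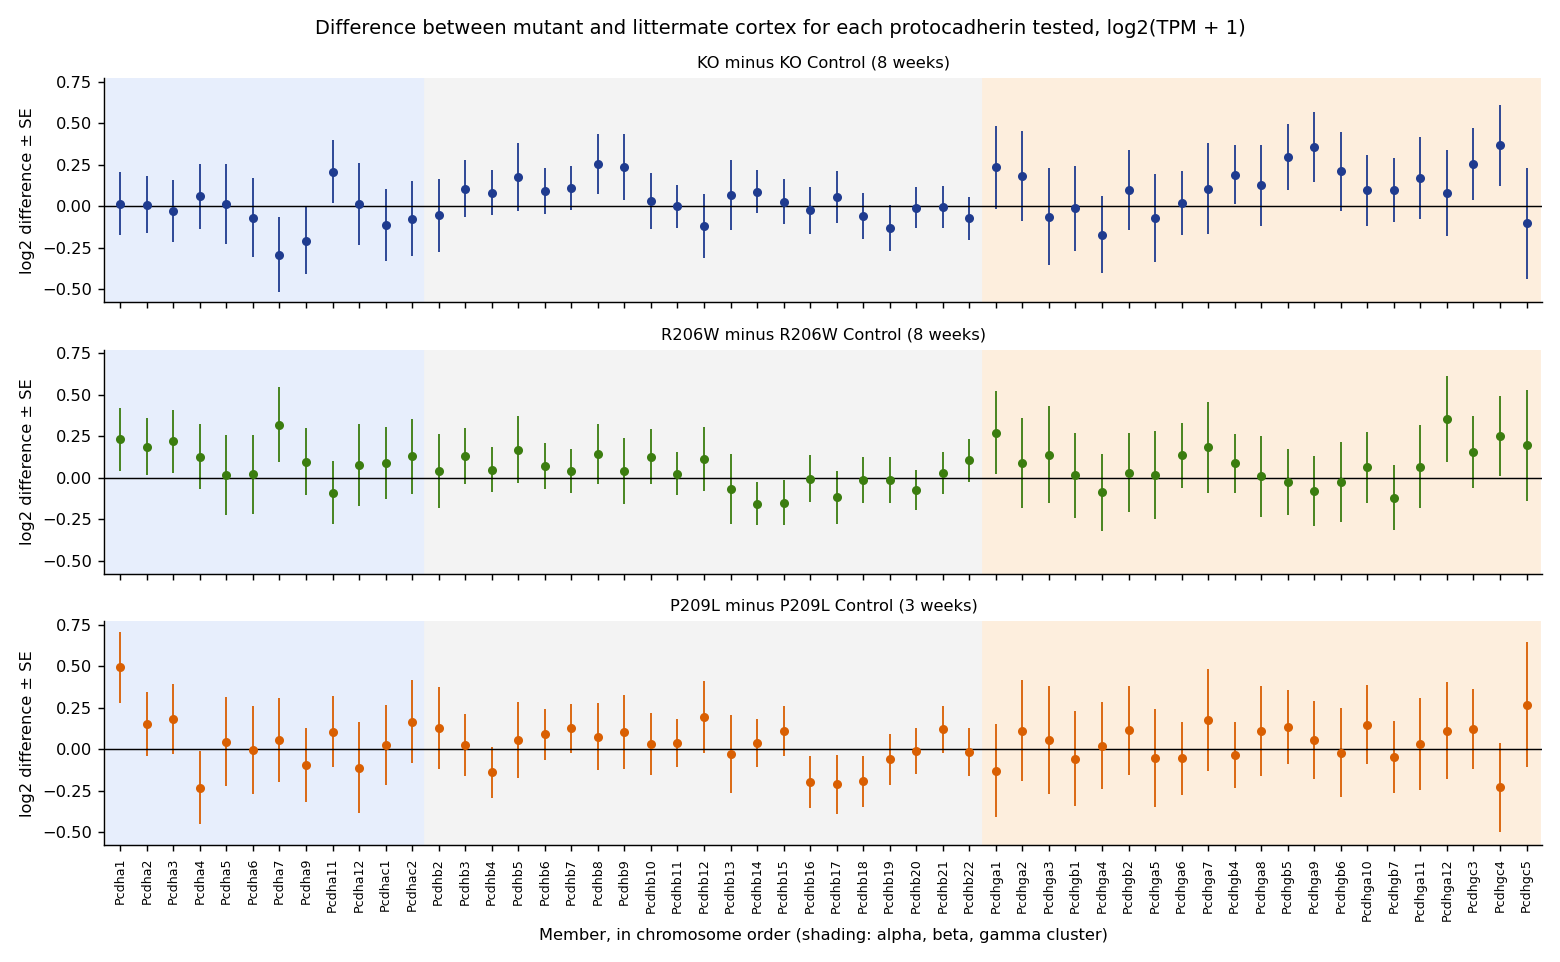
Difference in log2(TPM + 1) between mutant and littermate mice (estimate with SE) for the 54 members tested, in chromosome order, with a panel each for KO, R206W and P209L. The members' estimates lie between -0.29 and 0.49, and none passed the adjusted threshold.

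In KO mice the medians were -0.01 for alpha, 0.03 for beta and 0.11 for gamma, against 0.06 for all genes tested. The members with the smallest p were Pcdhga9 (log2 difference 0.35, SE 0.21), Pcdhgc4 (0.37, SE 0.24) and Pcdhgb5 (0.30, SE 0.20), each with a limma adjusted p of 0.999. Without KO 3 the difference of Pcdhgc4 was 0.04, without KO Control 1 those of Pcdhga9 and Pcdhgb5 were 0.07 and 0.12, and with sample weights these turned to -0.12 and -0.17. Pcdhga9 was at 3.66, 5.17 and 5.26 TPM in KO mice and at 1.97, 4.48 and 4.29 TPM in their controls, which overlapped. Pcdhgc4 overlapped too, with KO 3 at 121 TPM the highest of the 12 mice of 8 weeks. In no member did the KO and control mice fail to overlap, against 6.25% of all genes tested.

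In R206W mice the medians were 0.11 for alpha, 0.04 for beta and 0.07 for gamma, against 0.01 for all genes. The smallest p values belonged to Pcdha7 (log2 difference 0.32, SE 0.23), Pcdhga12 (0.35, SE 0.26) and Pcdha1 (0.23, SE 0.19), with an adjusted p of 1. Pcdhga12 was at 10.2, 9.49 and 14.9 TPM in R206W mice and at 8.71, 8.85 and 8.29 TPM in their controls, so the groups did not overlap. They did not overlap for 3 of the 54 members, against 16.2% of all genes tested.

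In P209L mice the medians were 0.05 for alpha, 0.04 for beta and 0.06 for gamma, against 0.02 for all genes. Pcdha1 had the smallest p, at 0.910, 1.97 and 1.58 TPM in P209L mice and at 0.470 and 1.05 TPM in their controls, which overlapped (log2 difference 0.49, SE 0.21, limma adjusted p = 0.62). Pcdhb18 (-0.19, SE 0.15) and Pcdhb16 (-0.20, SE 0.16) followed, with a limma adjusted p of 0.872. Without P209L Control 1 the differences of Pcdha1 and Pcdhb16 were 0.25 and -0.07. The groups did not overlap for 7 of the 54 members, Pcdhgc4 among them at 98.8 to 126 TPM against 131 and 139 TPM, where 24.9% of all genes did not overlap.

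The effects of KO and R206W, both at 8 weeks, were set against each other in the same fit. No member passed, where 0.0307% of all genes did, and 0 members had an unadjusted p under 0.05, where 2.29% of genes did. Pcdha7 had the smallest p, with a KO effect lower than the R206W effect by 0.61 on the log2 scale (SE 0.32, limma adjusted p = 1). It was at 1.82, 1.84 and 2.86 TPM in KO, 1.62, 3.24 and 4.11 TPM in KO Control, 3.71, 2.69 and 4.0 TPM in R206W and 3.20, 2.54 and 2.01 TPM in R206W Control mice, and all 4 groups overlapped. Pcdhga9 (0.43, SE 0.30) and Pcdhb14 (0.24, SE 0.18) came next, and without KO Control 1 their differences were 0.15 and 0.09.

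The wild-type littermates of the KO and R206W lines served as a comparison of background. None of the 54 members passed, as did 0% of all genes tested, and 0 members had an unadjusted p under 0.05 where 3.12% of genes did. The members' differences had the median 0.20 (R206W Control minus KO Control), against 0.13 for all genes tested, and 50 of 54 were above 0, as were 13652 of the 16265 genes. Under size factors the median of all genes became 0.00 and that of the members 0.09, with 43 of 54 above 0. Pcdha11 (0.39, SE 0.19), Pcdhb7 (0.25, SE 0.13) and Pcdhb17 (0.27, SE 0.16) had the smallest p, with a limma adjusted p of 0.784. KO Control 1 was the lowest of the 6 mice for each of them, and without it their differences were 0.13, 0.08 and 0.06.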

How the data were processed

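Bulk cortex RNA from 17 mice was analysed from 1 table of TPM deposited by the authors, whose columns each sum to 1000000. The submitters' processing notes name Trim Galore, STAR 2.7.1a, GATK 4.0.4.0, RSEM and the build mm10, and their annotation release is not given in the sources used here. Rows with the same symbol (120) were summed. Symbols were placed with GENCODE M21 (GRCm38), in which all 57 members were found.

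TPM was compared on the log2(TPM + 1) scale, which understates changes of low genes, for the 16265 genes with a mean of at least 1 TPM. The 6 group means were estimated by limma (version 3.58.1, R 4.3.3, trend in eBayes), with Benjamini-Hochberg adjusted p over all genes tested and a threshold of 0.05. Exact permutation tests used scipy. The fit was tested on simulated data with errors drawn independently for each gene and mouse. That setting holds no shift of a whole library, so it cannot show how the fit behaves under such shifts. Members and gene lists were chosen with earlier results of these data known. Members were named by level within a cluster, C-type membership, smallest p, size of the age difference or nearness to the filter. Each mouse is a separate sample by its label. Depth is unknown, so no counting interval is given. Alternatives were other pseudocounts, filters, scalings, weights, robust eBayes, fits on the groups compared alone, a replicate block, repeated symbols kept apart, and leaving out mice. Replicate numbers were not treated as pairs in the main fit. Of 8 same-numbered pairs, 2 had correlated deviations above 0.1 (range -0.11 to 0.33). With so few mice per group, this cannot decide whether the numbers pair mice. The values of 1 listed gene are not reported here. No sequences are printed.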

Additional observations from a re-analysis of the deposited data

How the results depend on the processing

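In wild-type mice, 43 members differed between ages. The count stayed between 31 and 50 under 10 alternatives of scaling, pseudocount, weighting and fit, and was 14 of the 15 members left by a filter at a mean of 5 TPM, where fewer members were tested. Leaving out 1 mouse at a time gave 27 to 49 calls, with the low values when a P209L Control mouse was left out, which leaves 1 mouse in that group, assumed to vary like the other groups. In mutants, 45 members differed, and the count was 14 of 15 at the stricter filter and 38 to 46 without 1 mouse. Under a replicate block, the counts were 40 in wild-type mice and 45 in mutants. The block changed no call in the KO, R206W, P209L, KO minus R206W or control line comparisons, at 0 throughout. Whether the replicate numbers pair mice is not known. With sample weights, the log2 difference of Pcdhga9 in KO mice turned to -0.12 and that of Pcdhgb5 to -0.17, and neither passed the threshold in any setting. The cause was not tested. Summed log2 differences of the clusters between ages in wild-type mice were -0.63 for alpha, -0.76 for beta and -0.51 for gamma, and under size factors -0.49, -0.63 and -0.38. Without KO Control 1 and P209L Control 2, an alternative chosen after seeing the data like that of repeated symbols kept apart (44 calls), they were -0.69, -0.82 and -0.68. TPM gives no depth, so what counting error contributes to members near 1 TPM cannot be stated.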
